A study of Mus musculus with 2 samples.

Results

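The transcripts described here are those of 10 antiviral effector genes of the interferon response: Ifit1, Ifit1bl1, Ifit2, Ifit3, Oas1a, Oas2, Oas3, Oasl1, Oasl2 and Rsad2. They were chosen by symbol, and all 10 were found among the 32544 genes counted in both libraries. They were measured by scRNA-Seq, single-cell mRNA sequencing, in bone marrow-derived monocytes (BMDMs) of mice. The cells were cultured with M-CSF at 50 ng/ml and RANKL at 100 ng/ml and collected 24 h post-RANKL. RANKL drives these cells toward osteoclasts (OCs), the bone-resorbing cells. The control library came from cells labelled only as control, and the mutant library from LysM-Cre;Arid1afl/fl cells, both from mice of 4 to 6 weeks of age. LysM-Cre, a recombinase driven by the Lyz2 promoter, acts in monocytes, macrophages and neutrophils. There it deletes floxed Arid1a, which encodes a DNA-binding subunit of BAF, a chromatin remodeling complex. Nothing in the labels says how many mice were pooled, or whether the control carried Cre or the floxed allele.

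Filtering left 6269 cells of the control and 5663 of the mutant library, with medians of 23978 and 21734 unique molecular identifiers (UMIs, each marking a captured mRNA molecule) per cell. All 6 macrophage markers were present in both libraries. Lyz2 was at 10803 UMIs per 1e6 UMIs (CPM) in control cells and 5432 in mutant cells, while Csf1r, Cd68, Itgam, Adgre1 and Fcgr1 were higher in mutant cells, by log2 ratios of 0.36 (Cd68) to 2.33 (Fcgr1). Of the T cell markers, Cd3e and Cd3g had 0 UMIs in either library and Cd3d had 5 and 4. The targeted gene Arid1a was at 51.9 CPM in control cells and 20.4 in mutant cells. The 2 libraries shared 7 cell barcodes. Each genotype was 1 library, so no difference has a replicate check and no test was possible. All intervals are 95% intervals of counting error alone, which describe these libraries and not the genotypes.

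IFIT proteins are built from tetratricopeptide repeats and bind viral RNA, IFIT1 at 5′ ends that lack the methylation of the cell's own caps. OAS enzymes sense double-stranded RNA and make short oligoadenylates, which act as second messengers. OASL proteins carry ubiquitin-like domains, and viperin, the product of Rsad2, makes a modified nucleotide that ends viral RNA synthesis. Type I interferon induces all of these families through factors such as STAT2 and IRF9, acting at a repeated GAAA element.

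The genes lie in few places of the genome (GRCm39, GENCODE M39). The 4 Ifit genes lie within 104 kb of chromosome 19, from 34527932 to 34632174. The 3 Oas genes span 178 kb of chromosome 5 from 120868398 to 121046449, Oasl1 and Oasl2 lie at 115034997 to 115075974 of the same chromosome, and Rsad2 at 26492745 to 26506451 of chromosome 12. Ifit1 overlaps Ifit1bl2 on the opposite strand and Oas1a overlaps Oas1d in the same way. Oas2 and Oasl1 overlap unnamed gene models. Whether counting used the strand was not given in the sources used here, so the overlapping pairs are uncertain. So is Oas1a against its neighbour Oas1g, since 51.2% of the 60-base words in the last 500 bases of the longest Oas1a transcript also occur in Oas1g. The same share was 10.9% for Ifit3 with Ifit3b, 4.76% for Ifit1bl1 with Ifit1bl2 and 3.63% for Oas3 with 4 unrelated genes. It was 0 for the other 6 genes.

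Windows before the transcript start were available from RefSeq (GRCm38.p6) for 9 of the 10 genes, Oas2 being the one without. GAAA, any 2 bases, then GAAA was searched on both strands in the 250 bases before each start. At least 1 match was found for 6 of the 9 genes (66.7%), against 2.98% of all 32851 windows and 3.46% of all symbols. Ifit1 had matches starting at -104 and -85 relative to the start, Ifit3 at -156 and -122, Oas1a at -20 and -14 with 4 bases in common, Oas3 at -75 and Rsad2 at -120. Ifit1bl1 had a match at -104 of its first window and another at -23 of its second. No match was found in the windows of Ifit2, Oasl1 and Oasl2, which says only that these letters are not in them. The 160 bases before the start are shown 5′ to 3′ for a gene of each kind of distribution described below, with matches in capitals, those on the other strand reading as TTTC, any 2 bases, then TTTC. They are Ifit1 (chr19:34640729-34640888, plus strand), Ifit3 (chr19:34583369-34583528, plus), Rsad2 (chr12:26456453-26456612, minus), Oas1a (chr5:120907526-120907685, minus) and Oas3 (chr5:120777660-120777819, minus).
Ifit1: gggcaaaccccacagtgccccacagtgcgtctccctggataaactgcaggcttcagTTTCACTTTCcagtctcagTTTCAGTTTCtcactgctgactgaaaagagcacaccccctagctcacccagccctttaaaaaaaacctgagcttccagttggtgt
Ifit3: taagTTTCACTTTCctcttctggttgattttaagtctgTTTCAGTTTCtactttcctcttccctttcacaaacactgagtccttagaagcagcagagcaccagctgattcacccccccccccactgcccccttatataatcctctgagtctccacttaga
Rsad2: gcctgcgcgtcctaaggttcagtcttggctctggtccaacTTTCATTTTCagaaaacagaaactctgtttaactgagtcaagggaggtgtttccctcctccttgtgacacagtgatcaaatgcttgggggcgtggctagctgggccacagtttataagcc
Oas1a: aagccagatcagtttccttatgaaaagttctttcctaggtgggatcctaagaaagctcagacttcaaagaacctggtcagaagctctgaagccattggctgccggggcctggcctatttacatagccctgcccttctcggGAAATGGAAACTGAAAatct
Oas3: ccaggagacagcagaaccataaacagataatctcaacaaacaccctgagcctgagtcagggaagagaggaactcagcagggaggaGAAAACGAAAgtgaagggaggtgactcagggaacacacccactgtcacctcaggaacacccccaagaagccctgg

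The first question was how much of each transcript the libraries held. Each of the 10 genes had the higher level in mutant cells. The summed level of the 10 genes was 292 CPM (289 to 294) in control cells and 1077 CPM (1072 to 1083) in mutant cells. On the log2 scale, the ratio of mutant over control was 1.89 (1.87 to 1.90). At least 2-fold higher were 9 of the 10, the exception being Oas2. Over all genes whose mean reached 20 CPM, 5219 in number, the share was 5.65%, and their median log2 ratio was 0.02. Ifit1bl1 did not reach this mean, and Ifit2, Oas2 and Oasl1 reached it only through the mutant library. The remaining 6 genes had at least 20 CPM in the control library and were each at least 2-fold higher, against 3.77% of all genes with that control level.

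The Ifit genes had the widest gap of the families, with a summed level of 92.2 CPM in control cells and 440 in mutant cells. The log2 ratio was 2.26 (2.23 to 2.28). Ifit3 was at 25.6 CPM (24.8 to 26.3) against 152 CPM (150 to 154), a log2 ratio of 2.57. Ifit2, which also has roles in cell death, was at 11.8 CPM (11.3 to 12.3) and 63.6 CPM (62.2 to 65.0), a log2 ratio of 2.43. Ifit1 went from 49.8 CPM (48.8 to 50.9) to 202 CPM (200 to 204), a log2 ratio of 2.02. Its relative Ifit1bl1 had 812 UMIs and 4.96 CPM (4.63 to 5.32) over control cells, and 3017 UMIs and 22.9 CPM (22.1 to 23.8) over mutant cells. That is a log2 ratio of 2.21 (2.10 to 2.32).

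The 3 Oas genes had the narrowest gap, with 90.5 CPM summed over control cells and 220 CPM over mutant cells, and a log2 ratio of 1.28 (1.25 to 1.31). Oas3, which prefers long double-stranded RNA, was at 53.8 CPM (52.7 to 54.9) and 142 CPM (139 to 144), a log2 ratio of 1.40. Oas1a was at 20.8 CPM (20.1 to 21.5) and 51.4 CPM (50.2 to 52.7), a log2 ratio of 1.30. Oas2 was at 15.9 CPM (15.3 to 16.6) and 27.3 CPM (26.4 to 28.2). Its log2 ratio of 0.78 (0.70 to 0.85) was the smallest of the 10 genes.

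The OAS-like genes went with the Ifit genes in size. Oasl1, which in mice restrains translation of Irf7, was at 17.1 CPM (16.4 to 17.7) and 73.3 CPM (71.9 to 74.8), a log2 ratio of 2.10. Oasl2 was at 59.0 CPM (57.9 to 60.2) and 249 CPM (246 to 251), a log2 ratio of 2.07. Rsad2 was at 32.7 CPM (31.9 to 33.6) and 94.7 CPM (93.0 to 96.3), with a log2 ratio of 1.53 (1.49 to 1.58) between those of the Oas and the Oasl genes.

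**Figure D1:**
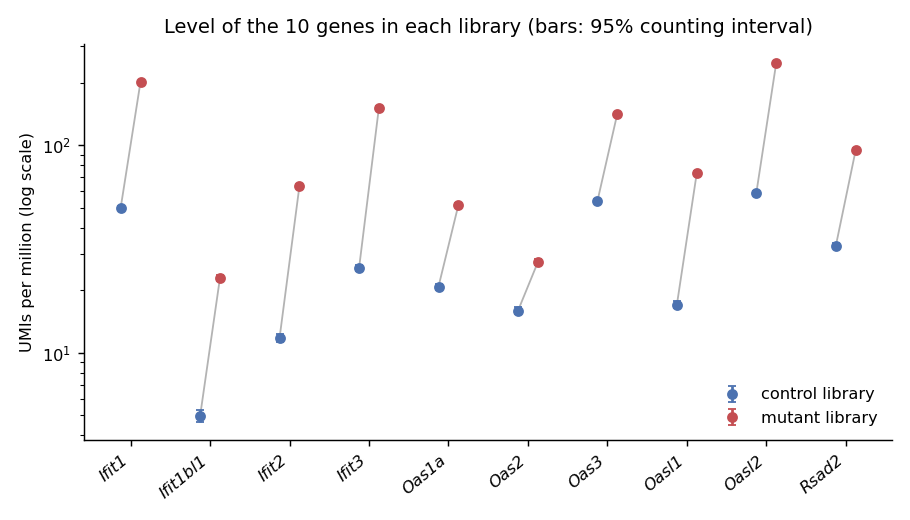
Level of each of the 10 genes in the control (blue) and mutant (red) library, in UMIs per 1e6 UMIs of summed counts on a log axis; bars are 95% counting intervals, often smaller than the points. Each gene is higher in the mutant library, by the least for Oas2 (log2 ratio 0.78) and by the most for Ifit3 (2.57).

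Neutrophil and class II markers were also higher in the mutant library. The 4 neutrophil markers S100a8, S100a9, Ngp and Camp summed to 264 CPM over control cells and 1982 CPM over mutant cells, with all 4 detected in both. The class II markers Cd74, H2-Aa, H2-Eb1 and H2-Ab1 summed to 28.7 and 116 CPM. Outside the cells that such markers gate, together with 3 cells per library gated by stromal collagens, the log2 ratio of the 10 genes was 1.89, as over all cells.

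How the transcripts were spread over cells was asked at an equal depth, with each cell thinned to 5000 UMIs. This kept 6101 control and 5312 mutant cells and left out 168 and 351 shallower ones. The genes fell into 2 patterns. Ifit1, Ifit2, Ifit3, Ifit1bl1, Rsad2 and Oasl1 varied between cells well beyond counting error. Oas1a, Oas2, Oas3 and Oasl2 varied less, with control Oasl2 the least even of these 4. The first pattern does not mean that few cells had the transcript. Among mutant cells Ifit1 was detected in 49.5% and Ifit3 in 39.7%, against 23.8% for Oas1a and 12.9% for Oas2. The measure was the excess squared coefficient of variation (CV), the variance minus the mean over the squared mean, which is 0 when every cell has the same expected count. An excess of at least 1 was found for 6 of the 10 genes in each library. Over all genes whose mean of the libraries reached 20 CPM, the share was 5.65% among control cells and 6.21% among mutant cells. Of the 6 genes, Ifit1bl1 did not reach this mean, and Ifit2 and Oasl1 reached it only through the mutant library. The share among control cells equals that of the genes at least 2-fold higher by coincidence, at 295 of 5219 genes each.

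In the control library the excess squared CV was 18.9 for Ifit1, 21.9 for Ifit3, 58.0 for Ifit2 and 652 for Ifit1bl1. Rsad2 had 41.3 and Oasl1 7.72. The median of all genes was 0.15 and the 99th percentile 4.29, so these 6 genes lay above it. Oas1a had -0.12, Oas2 0.16, Oas3 0.46 and Oasl2 0.90, which for Oasl2 is above the 90th percentile of all genes (0.63). All 6 values of the first pattern were lower in the mutant library. They were 2.60 for Ifit1, 3.65 for Ifit3, 4.89 for Ifit2, 78.4 for Ifit1bl1, 15.2 for Rsad2 and 2.93 for Oasl1, against a median of 0.19 and a 99th percentile of 4.35 over all genes. Oas1a had 0.09, Oas2 0.58, Oas3 0.18 and Oasl2 0.14. The measure divides by the squared mean, which was higher in the mutant library, so a lower value there need not mean a smaller tail. The variance over the mean was higher in mutant cells for Rsad2 (7.50 and 8.71), Ifit3 (3.85 and 3.98) and Oasl1 (1.65 and 2.12). It was lower there for Ifit1 (5.76 and 3.74), Ifit2 (4.55 and 2.67) and Ifit1bl1 (17.4 and 12.3). The excess of a low gene is imprecise: another seed of the thinning gave 777 for control Ifit1bl1 and 0.37 for control Oas1a, and control Oasl2 was at 1.00 with 2000 UMIs per cell, 1.01 with no filter on cells and 1.15 without likely doublets. Control Oasl2 thus lay on either side of 1, depending on the setting.

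**Figure D2:**
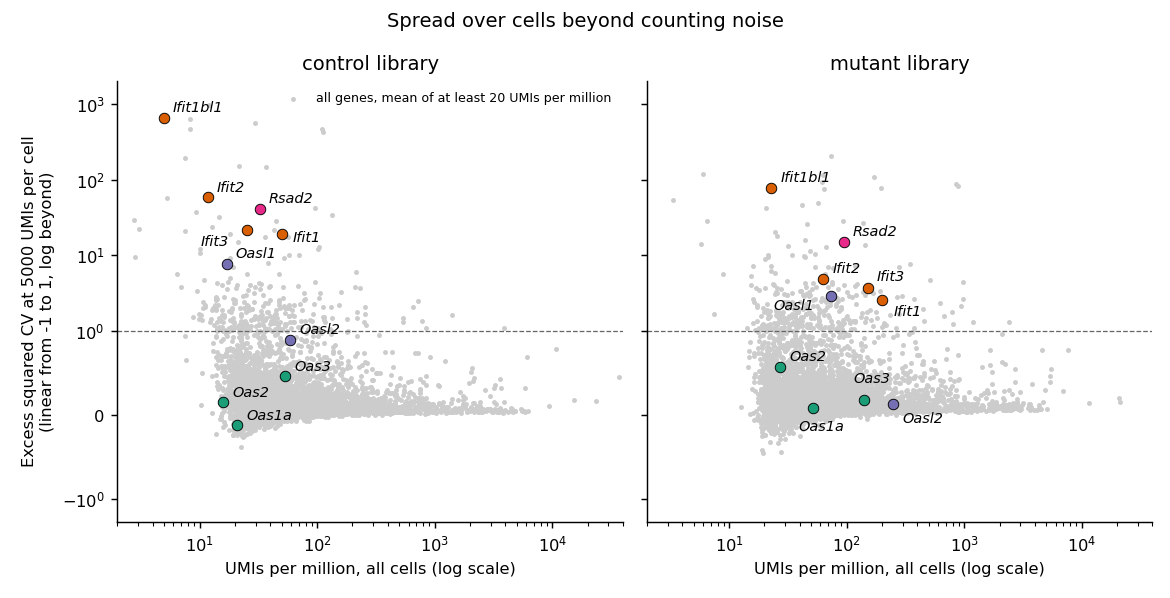
Excess squared CV at 5000 UMIs per cell (linear from -1 to 1, log beyond) against level in UMIs per 1e6 UMIs (log axis) for all genes with a mean of at least 20 UMIs per 1e6 UMIs (grey) and the 10 genes, coloured by family (Ifit orange, Oas green, Oasl purple, Rsad2 pink). In both libraries the Ifit genes, Rsad2 and Oasl1 lie above the dashed line at 1 and the Oas genes and Oasl2 below it.

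Shares of cells with a transcript were compared with those of a Poisson spread. Ifit1 was detected in 11.9% of control cells (11.1 to 12.8%), where a Poisson spread of the same UMIs would give 22.2%. Among mutant cells it was detected in 49.5% (48.2 to 50.9%), against 65.2% for a Poisson spread. Oas1a was detected in 9.60% of control cells against 9.56% for a Poisson spread, and in 23.8% of mutant cells against 24.1%. Thus Oas1a came close to its Poisson share in both libraries, and Ifit1 in neither. Oasl2 was detected in 23.8% of control cells against 26.5% for a Poisson spread, and in 68.3% of mutant cells against 71.2%. Without thinning, Ifit1 was detected in 28.8% of control and 78.5% of mutant cells, and Oas1a in 39.2% and 62.6%.

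The share of cells was higher in the mutant library for each of the 10 genes. The widest gap was that of Oasl2, with 23.8% of control and 68.3% of mutant cells, a difference of 44.5 points (42.8 to 46.1). Ifit1 differed by 37.6 points and Ifit3, with 6.80% and 39.7%, by 32.9 points (31.4 to 34.3). Ifit2 was found in 3.15% and 21.2%, and Ifit1bl1 in 0.87% and 3.69%. Oas3 was found in 22.0% and 48.3%, a difference of 26.3 points (24.6 to 28.0). Oas2 differed least among the genes other than Ifit1bl1, with 7.70% and 12.9%, or 5.17 points (4.04 to 6.31). Oasl1 went from 6.77% to 26.2% and Rsad2 from 6.83% to 24.1%. Unthinned shares ran from 2.04% (Ifit1bl1) to 61.2% (Oas3) in the control and from 8.60% (Ifit1bl1) to 92.7% (Oasl2) in the mutant library.

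RNA free in the droplets can add UMIs to any cell, and no cell type in this culture is known to lack these genes. Cells gated by neutrophil markers served as the nearest comparison, at a median of 8616 UMIs among control cells and 10828 among mutant cells before thinning, against 24266 and 22412 over all thinned cells. In the 17 control cells of this gate, Ifit1 and Oas3 were each seen in 1 cell and the other 8 genes in 0, for which the interval reaches 19.5%. In the 75 mutant cells of the gate, 9 of the 10 genes had a lower share than over all cells, for example 13.3% (6.58 to 23.2%) for Ifit3 and 44.0% (32.5 to 55.9%) for Oasl2. Oas2 was the exception, with 17.3% (9.57 to 27.8%). The mutant shares over all cells of Oas2 (12.9%), Oas1a (23.8%, gate 8.55 to 26.3%) and Ifit1bl1 (3.69%, gate 0.034 to 7.21%) lay within the gate's interval, so for these 3 genes they were not shown to exceed this comparison. In the control library every share over all cells but that of Oasl2 (23.8%) lay within the wide interval of the gate. The control shares of the other genes were therefore not shown to exceed it either.

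In the cells that had Ifit1, the mean was 2.10 UMIs among control cells and 2.13 among mutant cells. Thus for Ifit1 the mean per positive cell was nearly equal while the share of positive cells differed by 37.6 points. This did not hold for every gene. The mean was 1.29 and 1.83 UMIs for Oasl2, 1.20 and 1.46 for Oas3 and 2.89 and 3.92 for Ifit1bl1. For Ifit2 it was lower among mutant cells, at 1.94 and 1.61. Cells with at least 5 UMIs of Ifit2 held 31.6% of its UMIs among control cells and 16.6% among mutant cells. For Ifit1 these were 38.6% and 30.2%. Such rich cells raise the mean, so it does not describe a typical positive cell. Such a mean cannot fall below 1, so it says little for genes of low level. At least 5 UMIs of Ifit1 were held by 67 control and 207 mutant cells. For Rsad2, whose mean per positive cell was 2.30 and 2.11 UMIs, these were 46 and 82 cells. The Oas genes reached 5 UMIs in none of the control cells, and in the mutant library 11 cells did so for Oas3 and 0 for Oas1a and Oas2. The richest 1% of cells held 36.7% of the Ifit1 UMIs, 42.9% of Ifit3, 64.1% of Ifit2 and 54.9% of Rsad2 in the control library. Among mutant cells they held 13.8%, 16.0%, 19.3% and 33.4%. For Oas3, the richest 1% held 9.92% and 6.01%, for Oas1a 14.4% and 8.54% and for Oas2 17.0% and 15.3%. Mutant Oas2 thus exceeded mutant Ifit1. A gene of few UMIs has them in few cells even with a Poisson spread, so genes of unlike level cannot be ranked by this share.

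**Figure D3:**
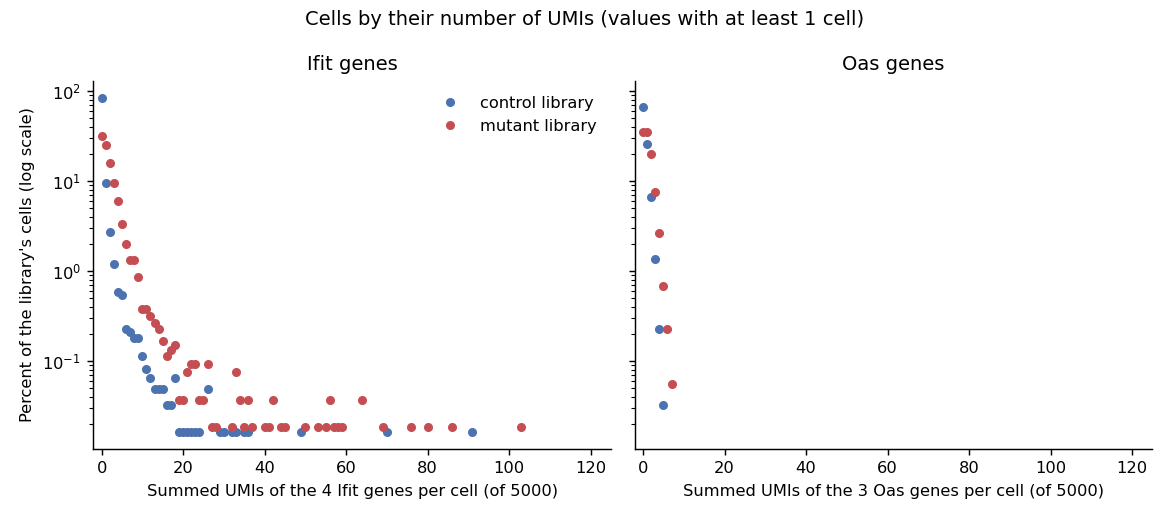
Percent of the cells of each library (log axis) by the summed UMIs of the 4 Ifit genes (left) and the 3 Oas genes (right) in a cell thinned to 5000 UMIs, control in blue and mutant in red; each point is a number of UMIs held by at least 1 cell. The Ifit counts run to 91 UMIs among control cells and 103 among mutant cells, while the Oas counts end at 5 and 7.

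Summed over the 10 genes, the median cell had 1 UMI among control cells and 4 among mutant cells. No UMI of any of the 10 was found in 44.3% of control and 4.05% of mutant cells. The 95th percentiles were 5 and 13 UMIs, and the highest cells had 114 and 143. Hence most mutant cells carried a few of these transcripts, and both libraries held a tail of cells with many.

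Cells with at least 20 summed UMIs of 5000 are called burst cells below. They were chosen by these same counts, so their levels of the 10 genes are a description. There were 42 in the control library, 0.69% (0.50 to 0.93%), and 117 in the mutant library, 2.20% (1.82 to 2.63%). The difference was 1.51 points (1.07 to 1.99). At a limit of 10 UMIs the shares were 1.66% and 11.5%, and at 40 UMIs 0.23% and 0.85%, so the size of the difference depended on the limit. The burst cells held 17.3% of the UMIs of the 10 genes among control cells and 16.9% among mutant cells. Leaving them out gave a log2 ratio of 1.95 (1.94 to 1.97) for the summed genes, in place of 1.89. The ratio of Ifit2 then was 2.87 in place of 2.43, that of Ifit3 2.84 and that of Rsad2 1.65, while Oas1a stayed at 1.30 and Oas3 at 1.39.

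In the burst cells of both libraries the Ifit genes made up the larger part. They made up 60.6% of their UMIs of the 10 genes among control cells and 61.2% among mutant cells, and Rsad2 26.4% and 21.5%. The Oas genes made up 3.81% and 4.75%, and the Oasl genes 9.17% and 12.5%. Ifit1bl1 alone made up 7.04% and 12.01%. In all other cells the Ifit genes made up 26.0% and 38.1%, the Oas genes 36.1% and 23.1%, and Rsad2 7.47% and 6.50%. Ifit1 was found in each of the 42 and 117 burst cells, and Oas1a in 8 and 44 of them.

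The burst cells had medians of 26570 UMIs among control cells and 19663 among mutant cells before thinning, against 24263 and 22449 in the other cells. Among those with the highest doublet scores were 2 of the 42 and 4 of the 117. Cxcl10 and Isg15 also stood higher there. Both are among the genes found below to go most with the sum of the 10 over these same cells. Their levels in burst cells are therefore a description as well, and no separate support. Cxcl10, a chemokine of the interferon response, was at 5810 CPM in control burst cells against 92.8 in the others, and at 3800 against 278 in the mutant library. Isg15, a ubiquitin-like modifier, was at 1783 against 149 CPM and at 3767 against 614. Neutrophil markers summed to 23.7 CPM in control burst cells, where Ngp and Camp had 0 UMIs, against 245 in the others, and to 1222 against 1864 in the mutant library. Class II markers summed to 9.31 CPM against 28.9 in the control, where H2-Aa and H2-Eb1 had 0 UMIs in burst cells. Over mutant cells they summed to 473 CPM in burst cells against 105 in the others, with all 4 detected, and the part of such cells in the burst was not tested. Of the plasmacytoid dendritic cell markers, Siglech had UMIs in 0 control cells and 1 mutant cell of any kind, Ccr9 had 36 and 14 UMIs in all, and Tcf4 made up nearly all of the sum, so these markers say little of the burst cells.

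Interferon transcripts themselves were sought next. Of the ligands Ifnb1, Ifna1, Ifna2, Ifna4, Ifna5, Ifnl2, Ifnl3 and Ifng, Ifnb1 alone had UMIs. It had 2 UMIs in 1 control cell and 100 UMIs in 32 mutant cells. The log2 ratio was 5.96 (4.07 to 9.02). Of the 32 mutant cells 28 were burst cells, and so was the control cell. The 10 genes summed to 11327 CPM (11080 to 11577) in the mutant cells with Ifnb1 and to 1022 CPM (1016 to 1027) in those without. In the cells with Ifnb1 the Ifit genes were at 6524 CPM against 407 in those without, and the Oas genes at 389 against 219. The 89 mutant burst cells without an Ifnb1 UMI were more numerous than those with it.

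Whether cells rich in Ifit transcripts also held the others was asked by grouping cells by their summed Ifit UMIs. Rsad2 was the gene that rose most with them. Its mean was 0.04 UMIs (0.03 to 0.04) in control cells without an Ifit UMI and 7.96 (7.21 to 8.77) in the 51 cells with at least 10. For mutant cells it was 0.15 (0.13 to 0.16) and 6.48 (6.11 to 6.87), the latter in 174 cells. Oasl1 went from 0.05 to 1.71 UMIs among control cells and from 0.22 to 2.20 among mutant cells. Oasl2 went from 0.25 to 1.43 and from 1.04 to 2.18. The 3 Oas genes together went from 0.40 (0.38 to 0.42) to 1.35 (1.05 to 1.71) in the control and from 0.93 (0.89 to 0.98) to 1.76 (1.57 to 1.97) in the mutant library. They therefore rose much less with the Ifit UMIs than Rsad2 did, in both libraries.

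Cells without an Ifit UMI at this depth also differed between the libraries. These were 5109 control cells (83.7%) and 1684 mutant cells (31.7%). Their mean Oasl2 was 0.25 (0.23 to 0.26) UMIs among control cells and 1.04 (0.99 to 1.09) among mutant cells, and their mean Oas3 0.23 (0.22 to 0.25) and 0.56 (0.52 to 0.59). Oas and Oasl2 transcripts were thus higher in the mutant library also where no Ifit transcript was seen.

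**Figure D4:**
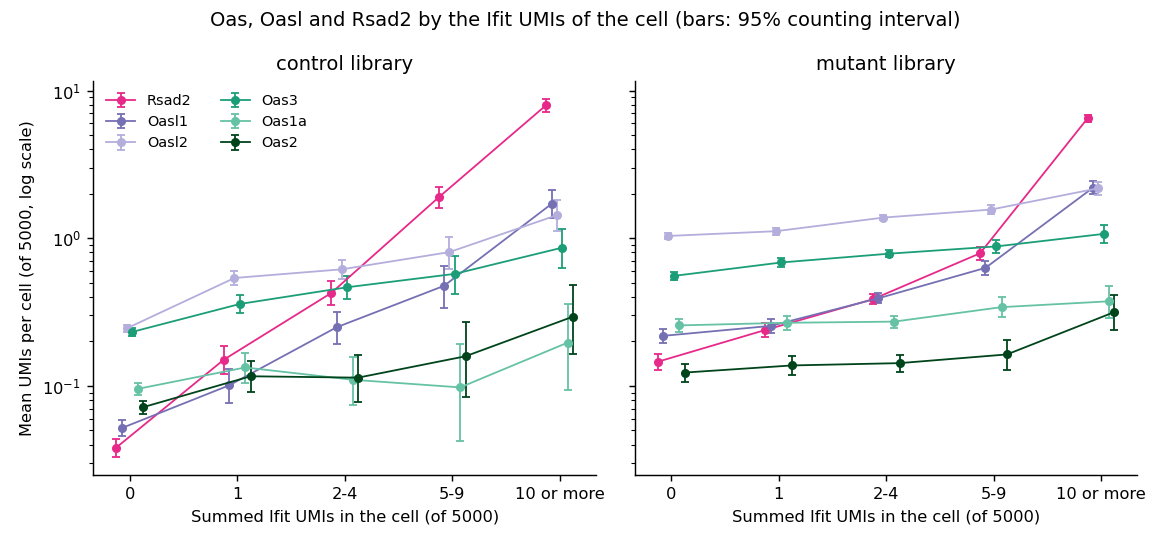
Mean UMIs per cell (of 5000, log axis) of Rsad2, Oasl1, Oasl2, Oas3, Oas1a and Oas2 in cells grouped by their summed Ifit UMIs, in the control (left) and mutant (right) library; bars are 95% counting intervals. Rsad2 climbs from 0.04 to 7.96 among control cells and from 0.15 to 6.48 among mutant cells, while Oas1a and Oas2 reach at most 0.37 and 0.32.

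Co-detection gave a further view of the same cells. Of the 45 pairs of genes, the observed number of cells with both exceeded the number expected from independent shares, by an interval above 1, for 40 pairs among control cells and 30 among mutant cells. The median ratio of observed over expected was 1.91 and 1.12. This ratio has a lower ceiling where shares are high, as they are in the mutant library, so the 2 libraries cannot be ranked by it. Pairs of Ifit genes had medians of 7.10 and 1.60, and pairs of Oas genes 1.21 and 1.01. The highest was Ifit1bl1 with Ifit2 in the control library, with 34 cells observed and 1.67 expected (ratio 20.4, 14.1 to 28.5). Oas1a with Oas2 was seen in 47 control cells where 45.1 were expected, and in 156 mutant cells where 163 were expected, with intervals that hold 1.

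Over cells, Pearson's r of log counts was 0.33 to 0.54 for the 6 Ifit pairs in the control (n = 6101 cells) and 0.34 to 0.41 in the mutant library (n = 5312). It was 0.00 to 0.04 and -0.00 to 0.02 for the 3 Oas pairs. The cells of a library share its preparation and depth, and low counts hold r down, so these are descriptions. The mean number of the 10 genes detected per cell was 0.995 among control cells and 3.18 among mutant cells. At least 7 were detected in 38 control cells (0.62%, 0.44 to 0.85%) where independent shares would give 0.017. Of the mutant cells, 227 (4.27%, 3.75 to 4.85%) had at least 7, where 43.5 were expected. No control cell and 2 mutant cells held all 10.

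The genes whose log counts were most like the sum of the 10 were sought among the 5210 other genes whose mean reached 20 CPM. In the control library they were Cxcl10 (r = 0.46), Isg15 (0.44), Cmpk2 (0.38), Ifi204 (0.32) and Ifi209 (0.32). In the mutant library they were Isg15 (0.42), Cxcl10 (0.36), Cmpk2 (0.36), Gbp2 (0.33) and Ifi204 (0.32). Cmpk2, a mitochondrial nucleotide kinase and the neighbour of Rsad2, was thus among the 5 in both.

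The study's OC and cycling markers were used to set states. The OC gate required 3 or more UMIs of 5000 summed over Acp5, Ctsk, Dcstamp and Mmp9. The cycling gate required as many over Aurka, Cdk1, Mki67 and Top2a. The numbers of cells in the OC gate are given only as the base of the levels, since its genes themselves differed between the libraries. Without thinning, Mmp9 was detected in 28.6% of control and 2.95% of mutant cells, and Dcstamp in 12.7% and 2.30%. Ctsk was detected in 23.7% and 14.5%, but Acp5 in 36.5% and 48.6%. The gate may thus hold unlike cells in the 2 libraries. In the control library the 10 genes were lower in the OC gate. They summed to 335 CPM (331 to 339) in 3344 cells of neither gate, 275 CPM (271 to 279) in 2157 cycling cells, 180 CPM (172 to 188) in 345 OC-gate cells and 128 CPM (120 to 136) in 255 cells of both gates. No such order was seen among mutant cells. There the levels were 1116 CPM (1109 to 1123) in 3412 cells, 987 CPM (978 to 996) in 1710, 1362 CPM (1322 to 1403) in 132 and 1102 CPM (1052 to 1153) in 58 cells.

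The ratio between libraries was therefore wider in the OC gate, whose cells need not be in the same state in both. The log2 ratio of the summed genes was 1.74 (1.72 to 1.76) in neither gate, 1.84 (1.82 to 1.87) in cycling cells, 2.92 in the OC gate alone and 3.11 in both gates. Without burst cells these were 1.75, 2.04, 2.99 and 2.84. At least 2-fold higher were 9 of the 10 genes in neither gate and 9 in cycling cells, Oas2 being the exception, and all 10 in the OC gate alone and in both gates. Among control cells, only Ifit1, Oas3, Oasl2 and Rsad2 had at least 20 CPM in the OC gate alone, and only Oas3 and Oasl2 in both gates. The others reached this mean there through mutant cells alone. Ifit1bl1, with 20 and 6 control UMIs in these gates, did not reach it. Nor did Ifit1bl1 in cells of neither gate or in cycling cells. In both of those states Ifit2, Oas2 and Oasl1 reached the mean only through mutant cells. The same held for Oas1a in cycling cells, with 19.7 CPM among control cells. The shares of all genes whose mean in those cells reached 20 CPM were 4.99%, 5.49%, 9.95% and 8.45%, so more genes differed by this fold in the small OC-gate groups in general. The difference of ratios between gates was not tested.

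The Ifit and Oasl genes widened more than the Oas genes. In the OC gate alone the Ifit genes summed to 53.9 CPM (49.4 to 58.6) among control cells and 641 CPM (614 to 669) among mutant cells. Their log2 ratio was 3.57 (3.43 to 3.71) there against 2.10 in neither gate. The Oasl genes summed to 43.5 and 368 CPM, a log2 ratio of 3.08 (2.92 to 3.24) against 1.83. The Oas genes summed to 60.2 and 217 CPM, a log2 ratio of 1.85 (1.69 to 2.01) against 1.12. Rsad2 was at 22.4 CPM (19.6 to 25.5) and 135 CPM (123 to 149) there. Of the 132 mutant cells in the OC gate alone, 7 were burst cells (5.30%, 2.16 to 10.6%), and of the 345 control cells 2 (0.58%, 0.07 to 2.08%). In cells of neither gate the burst shares were 2.37% (1.89 to 2.94%) and 0.72% (0.46 to 1.07%), so the interval of the mutant OC gate overlaps that of the other mutant cells.

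In the states with the most cells, neither gate and cycling, the Ifit genes and Rsad2 had the larger excess as well. In cells of neither gate the excess squared CV of Ifit1 was 13.5 among control cells and 2.74 among mutant cells, and that of Oas3 0.30 and 0.14. In cycling cells it was 30.9 and 1.76 for Ifit1, and 0.62 and 0.26 for Oas3. Exceptions to the split at 1 were Oasl1 in mutant cycling cells, at 0.82, and Oasl2 in control cycling cells, at 1.10. In the OC gate alone, with 345 control cells, Oas2 and Oasl2 were also over 1, at 1.45 and 1.80. In both gates, with 255 control and 58 mutant cells, the split did not hold for several genes. There control Oasl2 had 4.55, control Oasl1 -0.89, control Ifit1bl1 -0.50 and mutant Oasl1 0.34.

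**Figure D5:**
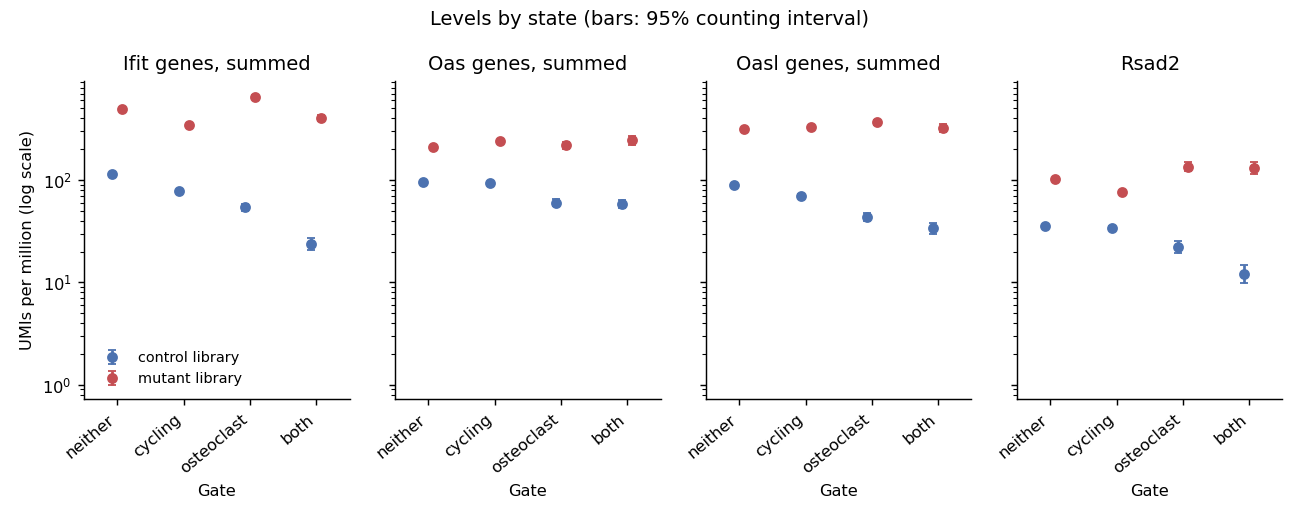
Summed level of the 4 Ifit genes, the 3 Oas genes and the 2 Oasl genes, and the level of Rsad2, in UMIs per 1e6 UMIs (log axis) in cells of neither gate, the cycling gate alone, the OC gate alone and both gates; bars are 95% counting intervals. In the control library (blue) the Ifit genes fall from 115 in neither gate to 23.9 in both gates, while in the mutant library (red) they lie between 341 and 641.

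Cells were also ranked within each library by 37 other effectors of the interferon response, a list that holds none of the 10 genes. From the lowest to the highest decile of control cells, the mean Ifit UMIs went from 0.03 to 2.80 and the mean Oas UMIs from 0.24 to 0.71. For mutant cells they went from 0.75 to 8.13 and from 0.89 to 1.54. The lowest decile of mutant cells had a mean of 38.6 UMIs of the other effectors, near the 39.97 of decile 8 of control cells. The former spanned 1 to 48 UMIs at the low end of a noisy count, the latter 38 to 43 toward the high end. The sum also leans on abundant genes of small ratio, such as Ifitm3 (2932 CPM in control cells, log2 ratio 0.68). These cells are therefore not matched by their interferon response. The means in these 2 deciles were 0.75 and 0.31 UMIs for the Ifit genes, 0.89 and 0.52 for the Oas genes and 1.09 and 0.50 for the Oasl genes. In the top 1% of cells, Ifit UMIs averaged 13.8 among control cells and 32.7 among mutant cells.

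Mutant cells with and without an Arid1a UMI at 5000 UMIs differed little in the 10 genes, although the intervals do not overlap. The summed level was 1103 CPM (1085 to 1121) in the 531 cells with a UMI and 1073 CPM (1068 to 1079) in the 4781 without. Burst cells were 9 of the former and 108 of the latter. A UMI can be missed in a cell that has the transcript, and 3′ counting can take up transcripts of a recombined allele, so this is no sorting of cells by allele.

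Among relatives outside the 10 genes, the near copies went the same way. Ifit3b was at 4.23 CPM and 26.1 CPM, a log2 ratio of 2.63 (2.51 to 2.75), with an excess squared CV of 39.4 and 8.49 like that of the Ifit genes. Oas1g had 5.48 and 18.2 CPM (log2 ratio 1.73, 1.62 to 1.84) with an excess of 0.40 and 0.10, like the Oas genes. Oas1c had a log2 ratio of 1.36, and Ifit1bl2, with 31 and 67 UMIs, 1.43 (0.79 to 2.09). Oas1d had 4 and 5 UMIs, and Oas1e, Oas1f and Oas1h had 0 in both libraries.

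Of the partner genes listed, Pde12 and Abce1 did not share the difference. Pde12, which degrades oligoadenylates, was at 19.5 and 16.8 CPM (-0.21, -0.29 to -0.13). Abce1, a ribosome recycling factor, was at 113 and 78.6 CPM (-0.53, -0.56 to -0.49). Cmpk2 was at 14.7 and 43.2 CPM, a log2 ratio of 1.55 (1.49 to 1.62).

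In the pathway that induces the 10 genes, all 12 signalling genes listed had the higher level in mutant cells, 5 of them at least 2-fold, against 5.65% of all genes whose mean reached 20 CPM. Of the 12, 8 reached that mean and 7 reached it in the control library. The highest ratios were those of Irf7 (2.96), Stat2 (2.44) and Usp18 (2.10), the factor, the signal transducer and the feedback inhibitor of type I interferon. The lowest were those of Tyk2 (0.09, -0.01 to 0.18), Socs1 (0.13) and Irf3 (0.18). The median of the 12 was 0.53. Of the 37 other effectors all were higher, 32 at least 2-fold, with a median of 1.53 against 2.05 for the 10 genes and 0.02 for all genes. Of the 37, 35 reached a mean of 20 CPM and 26 reached it in the control library. The highest were Ifi44 (4.13), Zbp1 (3.01) and Ifi205 (2.24), and the lowest Nt5c3 (0.57), Ifitm3 (0.68) and Tor3a (0.75).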

How the data were processed

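BMDMs were profiled with a 10x Genomics 3′ kit, as 1 library per genotype. The authors deposited unnormalized UMI counts for every gene and barcode. Per the file headers, Cell Ranger 6.1.0 produced these counts. GRCm39 is named in the labels. The annotation, a doublet filter and the use of strand were not given in the sources used here, nor was whether these counts precede any aggregation of libraries. PCR copies are collapsed in UMIs, but capture is incomplete, so a gene at 0 in a cell may be expressed there.

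Kept barcodes had at least 500 genes and at most 10% of UMIs from mitochondrial genes, which removed 186 of 6455 control and 202 of 5865 mutant barcodes. The cells held 163618835 and 131469887 UMIs, 47702 and 141614 of them from the 10 genes. Doublets were scored against simulated ones and kept. CPM have exact Poisson intervals, log2 ratios exact conditional ones, shares Clopper-Pearson ones and differences of shares square-and-add ones. Thinning was without replacement. Neutrophil-marker cells had at least 1% of their UMIs from the 4 markers, class II cells 0.5%, and stromal cells 0.1% and 2 UMIs.

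Named genes are the 10 genes, their paralogs, partners and ligands, the 3 highest and 3 lowest ratios of the signalling and effector lists, the 5 most correlated genes of each library, gate markers and Arid1a. Marker genes and Isg15 in burst cells were added after their values were seen. The genes and lists were chosen with earlier results of these data known. Another listed partner gene is not reported here. The scripts were tested on simulated data. Alternatives were other scalings, filters, folds, depths, gates and burst limits. Python 3.11.15, numpy 2.4.6, scipy 1.17.1, scikit-learn 1.9.0, R 4.3.3 and edgeR 4.0.16 (TMM factors only) were used.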

Additional observations from a re-analysis of the deposited data

How the results depend on the processing

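Of 98 alternative values of the main measures, 30 moved, and of 260 for single genes and other measures, 66 did. Values with a counting interval, shares of all genes among them, moved when they left it. The median ratio of the 10 genes was judged by a fixed step. The rest moved when they changed by over 1.5 times and, counts of genes aside, by more than a fixed step. No ratio or difference of shares changed sign. The log2 ratio of the summed genes, 1.89, was 1.82 with TMM scaling, 1.80 with median-of-ratios scaling, 1.78 with totals without mitochondrial and ribosomal protein genes, 1.95 when every cell weighed alike and 1.95 without burst cells. With totals without those genes the median gene shifted by -0.11, and the median ratio of the 10 genes was 1.94. The share of all genes at least 2-fold higher was 12.5% with no filter on level, 12.6% at 1.5-fold (10 of the 10 genes), 1.19% at 4-fold (6 of the 10) and 3.77% among genes of at least 20 CPM in the control. At 2000 UMIs per cell and a limit of 8 UMIs, burst cells were 3.07% of mutant cells and differed by 2.28 points. At a limit of 10 UMIs they were 1.66% and 11.5% (9.85 points), and at 40 UMIs 0.23% and 0.85% (0.62 points). The median excess squared CV of the Oas genes in the control was 0.46 at 10000 UMIs and 0.44 with no filter on cells, and -0.01 with the highest doublet scores removed. With gates of 2 UMIs the ratio was 1.68 in neither gate, 2.71 in the OC gate and 2.62 in both. With gates of 5 UMIs it was 1.78 in neither gate, 1.94 in the cycling gate and 3.08 in the OC gate. With the highest doublet scores removed it was 1.71 in neither gate and 3.33 in the OC gate. Without burst cells it was 2.04 in the cycling gate and 2.84 in both. The settings without burst cells and with 20 CPM in the control were chosen after seeing the data. The causes of these shifts were not tested. A planned ranking of cells without genes of the Ifit and Oas families was void, since the list held none. No paired analysis was possible because each group has 1 library. Ifit1bl1, at 812 control UMIs, is imprecise at this depth.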
